A study of Mus musculus with 16 samples.

Results

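The interferon response and antigen presentation genes were taken as 41 of the 41388 genes counted in each library, being those whose Ensembl identifier maps to a symbol on a fixed list. By role they comprised 4 sensors of foreign RNA, 4 interferon receptor and kinase genes, 6 STAT and IRF transcription factors, 17 effectors and other induced genes and 10 genes of the MHC class I pathway. RNA sequencing measured them in 16 libraries of cultured cortical neurons, taken from Swiss Webster mouse embryos at embryonic day 16. On day 5 in vitro every culture received 2 lentiviruses, one expressing exon 1 of huntingtin (Htt) and the other an shRNA (short hairpin RNA that silences its target), and the cultures were harvested on day 10. The 25Q group carried Htt exon 1 with 25 glutamines and a control shRNA against luciferase. The 72Q control group carried the mutant form with 72 glutamines and the same control shRNA. The remaining groups carried 72Q with Twist1 shRNA 1 or with Twist1 shRNA 2, both directed at Twist1, a transcription factor of mesoderm. Each group had n = 4 libraries, and the labels placed 1 library of each group in each of 4 experiments, named exp107, exp108, exp109a and exp109b. No group without lentivirus was analysed here, so lentiviral transduction was common to all groups, and no Twist1 shRNA was combined with 25Q.

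Cells detect foreign or misplaced RNA with cytosolic sensors, which trigger the secretion of type I interferons. Interferons bind a receptor whose associated kinases activate STAT2, and a complex that holds STAT2 and IRF9 binds an interferon-stimulated response element (ISRE) in the promoters of the induced genes, many of which restrict viruses. Interferon also raises the machinery that cuts cytosolic proteins with the immunoproteasome, pumps the peptides into the endoplasmic reticulum and loads them on MHC class I molecules for display to T cells, a pathway that neurons are known for keeping at a low level.

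Libraries held 15814525 to 19533034 counts. Mitochondrial genes took 2.41 to 2.78% of counts in 25Q, 3.16 to 3.59% in the 72Q control, 2.39 to 3.26% with shRNA 1 and 2.10 to 2.78% with shRNA 2, so that this share separated 25Q and shRNA 2 from the 72Q control. Twist1, the target of the shRNAs, averaged 0.271 ± 0.225 CPM (counts per 1000000 of the library, scaled by TMM factors, mean ± SD, n = 4, as are all CPM values given) in 25Q, 4.15 ± 0.763 CPM in the 72Q control, 1.57 ± 0.452 CPM with shRNA 1 and 1.64 ± 0.403 CPM with shRNA 2. The 9 neuronal markers examined all fell in 72Q, their summed level being 8783 to 10008 CPM in 25Q and 5675 to 6852 CPM in the 72Q control. Of 7 astrocyte markers 4 rose and none fell, with sums of 1587 to 1999.8 CPM and 1733 to 2199 CPM. Of 18 markers of microglia and macrophages, which respond strongly to interferon, 14 averaged under 1 CPM in each group, and the sum was 33.2 to 41.8 CPM in 25Q and 25.5 to 31.8 CPM in the 72Q control. Of 8 oligodendrocyte lineage markers 2 rose and 2 fell, with sums of 1025 to 1146 CPM and 1056 to 1194 CPM. For comparison, 57.1% of all genes tested were called in 72Q against 25Q, 29.3% as higher and 27.8% as lower. The 6 microglial markers that passed the filter on low counts included none that rose and 1 that fell (Mpeg1, from 9.49 to 1.68 CPM). All 6 lymphocyte markers averaged under 1 CPM in each group, and 5 of 6 endothelial markers did so in 25Q and in the 72Q control. In bulk RNA, fewer cells of a type and less RNA per cell cannot be told apart, and the part of these markers and of the mitochondrial share in the results below was not tested.

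The promoters of a few members are shown because they are the sequences at which interferon-activated factors are known to act, and because they include members that rose, members that fell and 1 with no match. In 72Q against 25Q, 7 of the 9 tested members with a match rose and 2 fell (Stat2 and B2m, the latter a call lost in 10 of 19 alternatives), against 12 that rose and 2 that fell of 19 without one. Of all genes tested 29.3% were called as higher and 27.8% as lower. Among the members that rose, Ifit1, Rsad2 and Bst2 with a match and Oasl2 and Psmb8 without one passed the filter on low counts through 72Q libraries alone. The sequences shown are the 250 bases before the start site, from RefSeq on GRCm38.p6, written 5′ to 3′ on the strand of the gene, with capitals marking matches to the ISRE core, which was taken as GAAA, any 2 bases and GAAA, or on the other strand TTTC, any 2 bases and TTTC.
Ifit1 (chr19:34640639-34640888, + strand): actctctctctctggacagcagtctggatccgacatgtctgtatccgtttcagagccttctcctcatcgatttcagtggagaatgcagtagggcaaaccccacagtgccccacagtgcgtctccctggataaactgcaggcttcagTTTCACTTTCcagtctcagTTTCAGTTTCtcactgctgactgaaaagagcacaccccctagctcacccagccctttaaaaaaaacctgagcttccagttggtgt
Rsad2 (chr12:26456453-26456702, - strand): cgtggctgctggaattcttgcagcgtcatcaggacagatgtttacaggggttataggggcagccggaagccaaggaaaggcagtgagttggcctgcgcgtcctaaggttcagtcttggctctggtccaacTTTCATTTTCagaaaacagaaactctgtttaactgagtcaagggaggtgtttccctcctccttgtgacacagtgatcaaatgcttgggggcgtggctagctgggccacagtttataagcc
Stat2 (chr10:128270248-128270497, + strand): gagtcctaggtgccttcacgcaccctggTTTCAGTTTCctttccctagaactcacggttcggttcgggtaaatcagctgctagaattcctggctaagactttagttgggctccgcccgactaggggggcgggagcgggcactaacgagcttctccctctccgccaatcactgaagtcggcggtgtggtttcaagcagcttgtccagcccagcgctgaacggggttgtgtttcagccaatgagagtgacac
B2m (chr2:122147437-122147686, + strand): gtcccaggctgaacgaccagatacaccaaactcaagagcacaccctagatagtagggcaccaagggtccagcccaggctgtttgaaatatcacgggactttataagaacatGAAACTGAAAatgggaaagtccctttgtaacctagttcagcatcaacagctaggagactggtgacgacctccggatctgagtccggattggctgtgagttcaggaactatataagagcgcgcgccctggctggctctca
Tap1 (chr17:34187306-34187555, + strand): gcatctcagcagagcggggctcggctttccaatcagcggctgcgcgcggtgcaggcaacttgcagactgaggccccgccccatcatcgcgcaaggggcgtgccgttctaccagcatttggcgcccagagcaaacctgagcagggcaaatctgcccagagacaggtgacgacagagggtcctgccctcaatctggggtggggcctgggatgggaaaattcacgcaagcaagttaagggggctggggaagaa
In Ifit1, an antiviral RNA-binding protein gene, the matches began 104 and 85 bases before the start, and in Rsad2, the gene of the antiviral enzyme viperin, a match began 120 bases before it. Stat2 had a match that began 222 bases before the start and B2m one that began 139 bases before it, while Tap1 had none in this window. RefSeq promoters of 300 bases, including 50 after the start, were found for 34 of the 41 members, and Dhx58, Tap2, Nlrc5, Mx2, Mx1, Usp18 and Parp14 had no entry. A match to the ISRE letters on either strand, overlapping matches included, was present in 15 of the 34, or 44.1%, against 3.99% of 27025 genes with such a window. The letters of a gamma-activated site, TTCNNNGAA, which reads the same on both strands, were present in 11 of the 34, or 32.4%, against 9.55% of all genes. Members were listed as interferon response genes, so more matches than in all genes could be foreseen and are no result of these data. A match describes letters and not a site in use, and promoters are shared in part by neighbours (the windows of Tap1 and Psmb9 have 275 bases in common).

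In 72Q against 25Q the RNA sensor genes Ddx58, Ifih1 and Eif2ak2 and the class I peptide supply genes Tap1, Tap2, Tapbp, Psmb8 and Psmb9 rose, as did 9 of the 17 effectors. Stat2 and Tyk2 fell, and so, by small amounts, did the class I genes B2m and H2-K1. Of the 41 members, 33 passed the filter on low counts, and of these 23 rose, 4 fell and 6 did not pass the test at an adjusted p of 0.05 (edgeR quasi-likelihood test, Benjamini-Hochberg adjustment over the 15103 genes tested, as for every adjusted p given). In the same comparison 57.1% of all genes tested were called, 29.3% as higher and 27.8% as lower. The median log2 fold change of the 33 was 0.87 and that of all genes tested 0.03. Of the 33, 8 had no 25Q library over the filter level of 0.565 CPM and could pass only through a 72Q group (Ifit1, Usp18, Oasl2, Mx2, Rsad2, Bst2, Parp14 and Psmb8). Without these 8 the other 25 included 15 that rose, 4 that fell and 6 that did not pass, with a median of 0.33. The libraries of 25Q and the 72Q control did not overlap for 19 of the 33, against 38.3% of all genes tested. By role, and among members with a 25Q library over that level, 3 of 3 sensors, 2 of 4 receptor and kinase genes, 4 of 6 STAT and IRF factors, 2 of 3 effectors (Ifit2 and Trim25, but not Ifi35) and 4 of 9 class I genes rose. The other effectors that rose, 7 in number, passed the filter through 72Q libraries alone.

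**Figure D1:**
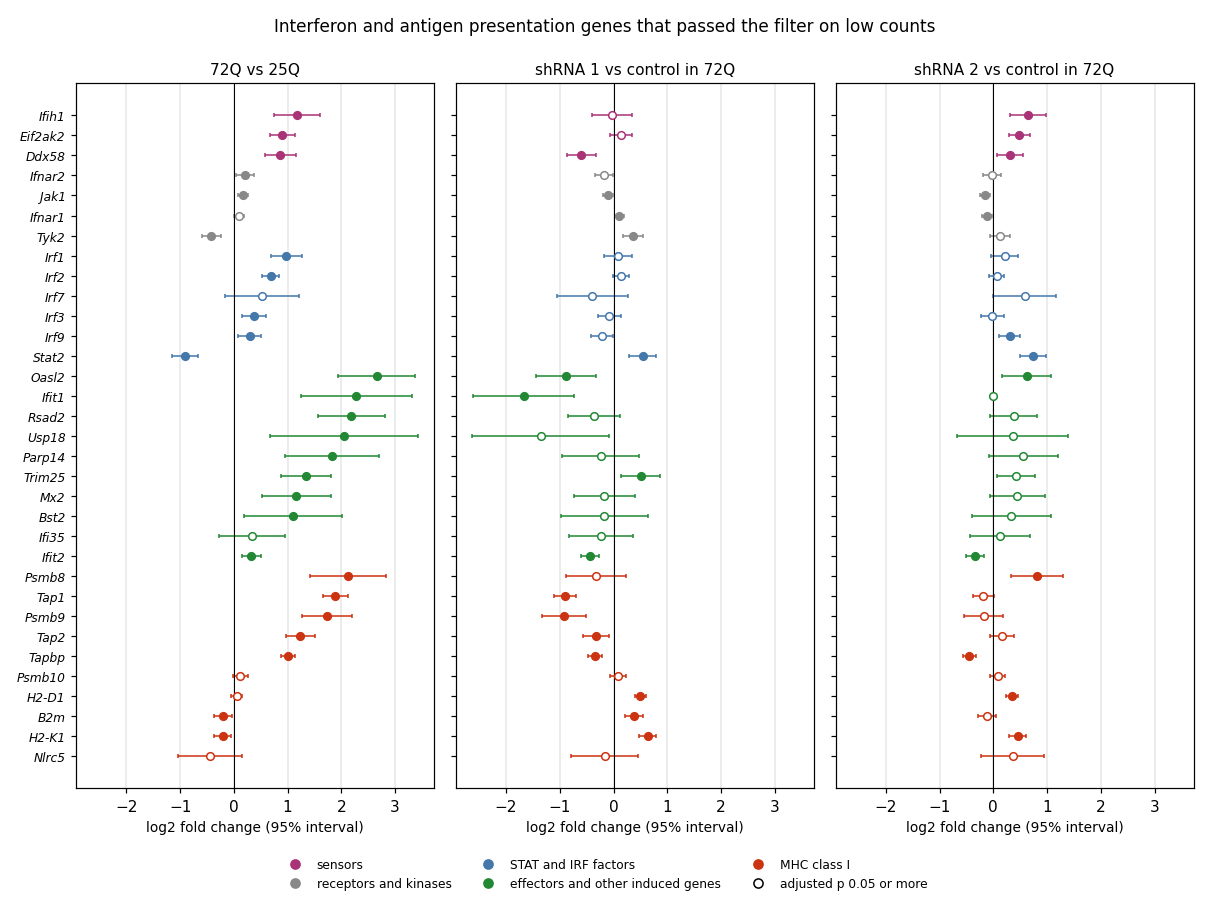
Log2 fold changes (x axis, with 95% intervals) of the 33 members that passed the filter, in 72Q against 25Q and with each Twist1 shRNA against its control in 72Q, coloured by role; open points have an adjusted p of 0.05 or more, and no interval is drawn for Ifit1 with shRNA 2, whose estimate was close to 0. Effectors, sensors and peptide supply genes lie right of the zero line in the left panel, from 0.32 for Ifit2 to 2.66 for Oasl2, apart from Ifi35 and Psmb10, which did not pass, and Stat2 and Tyk2 lie left of it.

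With the Twist1 shRNAs the share of members called was near that of all genes. With shRNA 1 against the 72Q control, 7 of the 33 rose and 9 fell (48.5% called), with a median log2 fold change of -0.17, against 46.3% of all genes tested called (22.7% higher and 23.6% lower). With shRNA 2, 9 rose and 4 fell (39.4%), with a median of 0.31, against 41.8% of all genes (20.2% higher and 21.5% lower). Both comparisons share the 72Q control libraries. The direct comparison of shRNA 1 with shRNA 2 called 5 members as higher and 15 as lower with shRNA 1, with a median of -0.36, against 53.2% of all genes (27.3% and 25.9%). Of the 33, 8 passed the filter through 72Q libraries alone. Among the other 25 the direct comparison called 5 as higher and 8 as lower (52%), with a median of -0.13. Against the control, 7 of these 25 rose and 7 fell with shRNA 1, and 7 rose and 4 fell with shRNA 2. Groups did not overlap for 8 members with shRNA 1 (29.0% of all genes), 5 with shRNA 2 (22.4%) and 6 between the shRNAs (33.2%). Against 25Q, which both share, 72Q with shRNA 1 had 19 members higher and 1 lower, where 57.4% of all genes were called (28.1% higher and 29.4% lower), and 72Q with shRNA 2 had 24 higher and 2 lower, against 63.3% (31.4% and 31.8%). Of the 25 members with a 25Q library over the filter level, 14 were higher and 1 lower with shRNA 1. With shRNA 2, 16 of these 25 were higher and 2 lower. Libraries did not overlap with 25Q for 16 members with shRNA 1 (40.1% of all genes) and 17 with shRNA 2 (43.4%). Without the experiment as a block the called members numbered 8 with shRNA 1, 6 with shRNA 2 and 13 between them, and with library totals as the scaling the calls with shRNA 2 were 10 higher and 2 lower. Cell type markers moved in the same comparisons: with shRNA 1 4 of 9 neuronal markers rose and 5 of 8 oligodendrocyte lineage markers fell, and with shRNA 2 2 neuronal markers rose and 4 fell, 4 of 7 astrocyte markers fell and 6 of 8 oligodendrocyte lineage markers fell. The summed oligodendrocyte lineage markers were 1056 to 1194 CPM in the 72Q control, 873 to 974 CPM with shRNA 1 and 750.5 to 869 CPM with shRNA 2, and the part of these markers in the members' changes was not tested.

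**Figure D2:**
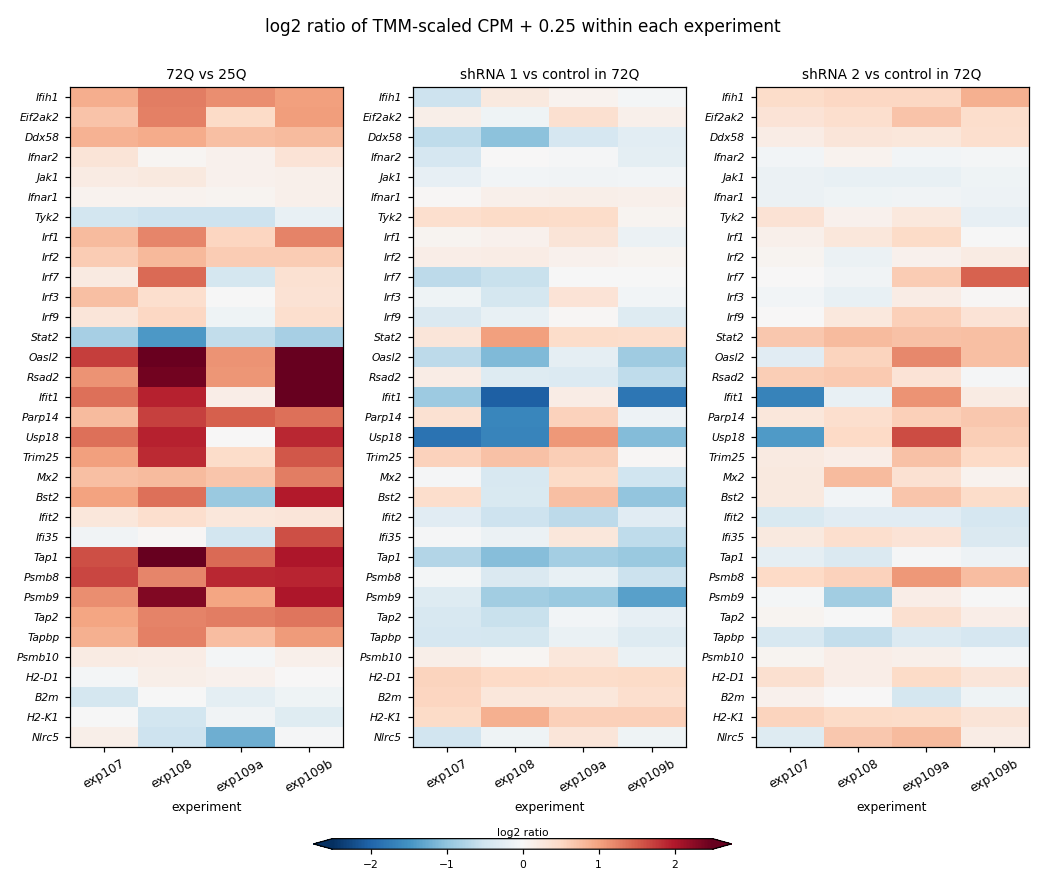
Log2 ratio of TMM-scaled CPM plus 0.25 within each experiment (columns) for the 33 members that passed the filter (rows), in 72Q against 25Q and with each Twist1 shRNA against the 72Q control; red is higher and blue lower, and the colour scale ends at 2.5 in either direction. In the left panel 24 of 33 members have the same sign in all 4 experiments, against 18 with shRNA 1 and 16 with shRNA 2. Among the 25 members with a 25Q library over the filter level the counts are 18, 16 and 13. The share of all genes tested with the same sign was not computed, so these counts describe the members alone.

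Among the sensors, Ifih1 encodes MDA5, which recognises long double-stranded RNA. In the order exp107, exp108, exp109a and exp109b, which is kept throughout, Ifih1 stood at 1.16, 0.917, 0.491 and 1.02 CPM in 25Q and at 2.38, 2.57, 1.41 and 2.32 CPM in the 72Q control. It stood at 1.59, 3.07, 1.53 and 2.25 CPM with shRNA 1 and at 3.38, 3.77, 2.14 and 4.51 CPM with shRNA 2. Every 72Q library was above every 25Q library, and exp109a was the lowest of each group. Ifih1 rose by 1.17 ± 0.21 (log2 fold change ± an SE derived from the F statistic of the test, as are all such values) in 72Q, adjusted p = 2.06e-05. It was -0.03 ± 0.18 from the control with shRNA 1 (adjusted p = 0.912) and rose by a further 0.64 ± 0.16 with shRNA 2 (adjusted p = 0.00201, and 0.0775 without the experiment block, within a range of 0.000304 to 0.0775 over the alternatives).

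Eif2ak2, the gene of the kinase PKR, which halts translation when it binds double-stranded RNA, stood at 4.34, 3.91, 5.15 and 5.33 CPM in 25Q and at 7.32, 9.75, 7.23 and 11.3 CPM in the 72Q control. With shRNA 1 it was at 8.17, 9.05, 9.66 and 12.4 CPM and with shRNA 2 at 9.40, 13.1, 12.1 and 15.4 CPM. All 12 libraries of 72Q lay above the 4 of 25Q, with the shRNA 2 library above the control in every experiment. Eif2ak2 rose by 0.90 ± 0.12 in 72Q (adjusted p = 9.38e-08) and by 0.49 ± 0.10 with shRNA 2 (adjusted p = 0.000155), and did not pass with shRNA 1 (0.14 ± 0.10, adjusted p = 0.269).

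Ddx58 encodes RIG-I, a sensor of short RNA with a triphosphate end. It stood at 2.55, 2.81, 2.39 and 3.18 CPM in 25Q and at 4.88, 5.60, 4.18 and 5.68 CPM in the 72Q control, and at 3.06, 2.61, 3.05 and 4.68 CPM with shRNA 1 and 5.59, 6.95, 5.14 and 7.69 CPM with shRNA 2. The 25Q and 72Q control libraries did not overlap, and neither did the shRNA 1 and shRNA 2 libraries. Ddx58 rose by 0.87 ± 0.14 in 72Q (adjusted p = 4.03e-06) and fell by 0.60 ± 0.13 with shRNA 1 (adjusted p = 0.000421). With shRNA 1 its difference from 25Q was 0.27 ± 0.15 (95% interval -0.04 to 0.57) and did not pass (adjusted p = 0.125). With shRNA 2 it rose by 0.31 ± 0.12 (adjusted p = 0.0348), a call lost in 10 of 19 alternatives (adjusted p 0.00969 to 0.202), among them those without exp109a of 72Q control (0.0855), exp109b of 72Q control (0.164), exp108 of shRNA 2 (0.134) or exp109b of shRNA 2 (0.0611). Directly compared, shRNA 1 was lower than shRNA 2 by 0.91 ± 0.13 for Ddx58 (adjusted p = 5.37e-07), 0.67 ± 0.16 for Ifih1 (adjusted p = 0.00102) and 0.34 ± 0.10 for Eif2ak2 (adjusted p = 0.00323, and 0.114 without the block, within a range of 0.000428 to 0.114). The remaining sensor, Dhx58, gene of the RIG-I regulator LGP2, did not pass the filter and averaged 0.336 ± 0.227 CPM in 25Q and 0.292 ± 0.141 CPM in the 72Q control.

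**Figure D3:**
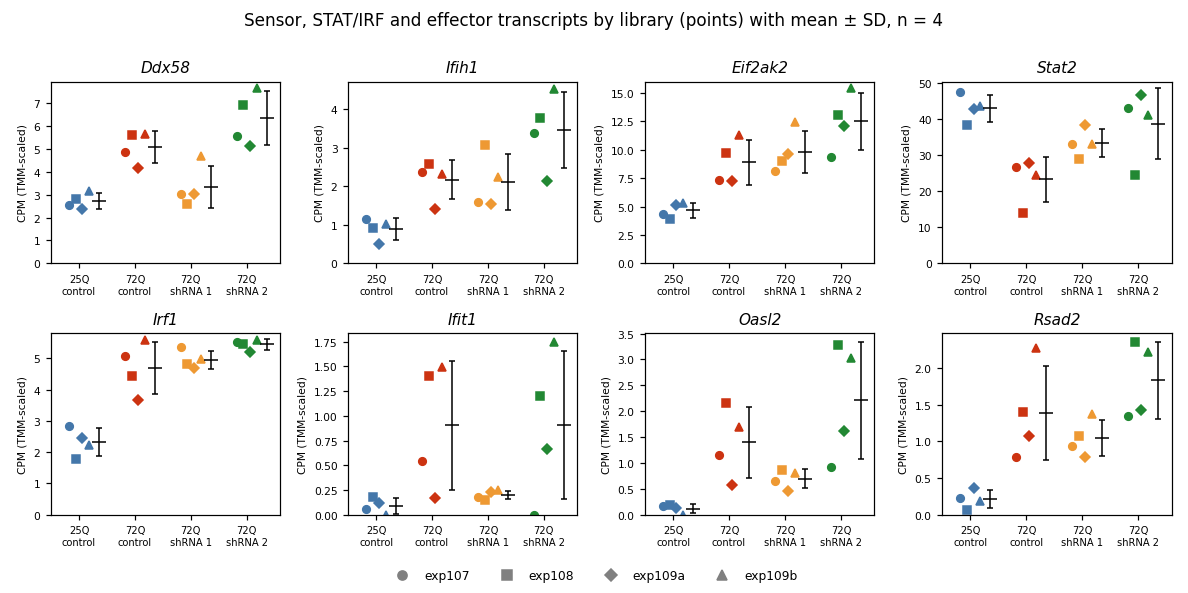
TMM-scaled CPM (y axis) of sensor, transcription factor and effector genes in each of the 16 libraries (points, shaped by experiment) with the mean ± SD of each group (n = 4). The 72Q control libraries lie above all 25Q libraries for Ddx58, Ifih1, Eif2ak2, Irf1, Oasl2 and Rsad2 and below them for Stat2, and for Ifit1 the exp109a library of the 72Q control (0.170 CPM) lies among the 25Q values.

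The interferon receptor genes and Jak1 changed by small amounts in 72Q, while Tyk2 fell by more. Of these 4 genes 3 were called in 72Q against 25Q (75%), 2 as higher and 1 as lower, against 57.1% of all genes tested. Ifnar1 and Ifnar2 encode the receptor subunits and Jak1 and Tyk2 the kinases bound to them. Per kilobase of listed gene length, Jak1 (39.5 ± 1.47 CPM per kilobase in the 72Q control) and Ifnar1 (17.3 ± 0.714) were more abundant than Ifnar2 (3.90 ± 0.436) and Tyk2 (2.22 ± 0.303). Jak1 stood at 258, 241, 258 and 254 CPM in 25Q and at 299, 287, 278 and 276 CPM in the 72Q control. Its levels were 261, 274, 262 and 263 CPM with shRNA 1 and 271, 253, 245 and 257 CPM with shRNA 2. The lowest 72Q control library was above the highest 25Q library, and both shRNA groups lay below the control. Jak1 rose by 0.17 ± 0.04 in 72Q (adjusted p = 0.00104) and fell by 0.15 ± 0.04 with shRNA 2 (adjusted p = 0.00458, and 0.118 with library totals as the scaling, within a range of 0.00364 to 0.118). The fall with shRNA 1, 0.10 ± 0.04 (adjusted p = 0.0459), was lost in 14 of 19 alternatives (adjusted p 0.0231 to 0.294), among them those without exp107 of 72Q control (0.16), exp108 of 72Q control (0.11), exp109a of 72Q control (0.0614), exp107 of shRNA 1 (0.205), exp109a of shRNA 1 (0.0934) or exp109b of shRNA 1 (0.0891).

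Tyk2 was the kinase gene that fell. It stood at 11.9, 13.9, 16.1 and 13.4 CPM in 25Q, 8.60, 9.69, 11.1 and 11.7 CPM in the 72Q control, 11.6, 13.6, 15.3 and 12.3 CPM with shRNA 1 and 11.1, 10.4, 13.3 and 10.2 CPM with shRNA 2. Only the 72Q control lay wholly below 25Q. Tyk2 fell by 0.42 ± 0.09 in 72Q (adjusted p = 0.00019) and rose by 0.36 ± 0.09 with shRNA 1 (adjusted p = 0.0014), which left it -0.06 ± 0.09 from 25Q (95% interval -0.24 to 0.11, adjusted p = 0.564). With shRNA 2 the difference from the control was 0.13 ± 0.09 (adjusted p = 0.261), which passed (0.23, adjusted p = 0.0495) without exp109b of the 72Q control.

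Ifnar1 stood at 98.1, 92.7, 94.1 and 97.4 CPM in 25Q and at 105, 98.4, 98.3 and 106 CPM in the 72Q control, and at 107, 108, 109 and 116 CPM with shRNA 1 and 95.2, 90.9, 92.5 and 96.7 CPM with shRNA 2. The groups did not overlap in 72Q against 25Q, yet the difference of 0.09 ± 0.04 did not pass (adjusted p = 0.0673), and with upper-quartile factors or library totals it did (adjusted p 3.71e-05 to 0.273 over the alternatives). With shRNA 1 Ifnar1 rose by 0.11 ± 0.04 (adjusted p = 0.0386) and with shRNA 2 it fell by 0.12 ± 0.04 (adjusted p = 0.0244). These calls were lost in 13 of 19 and 11 of 19 alternatives (adjusted p 0.0137 to 0.151 and 0.0286 to 0.426). For shRNA 1 the libraries whose removal lost the call were exp108 of 72Q control (0.0881), exp109a of 72Q control (0.105), exp109b of 72Q control (0.0693), exp108 of shRNA 1 (0.0802), exp109a of shRNA 1 (0.0796) or exp109b of shRNA 1 (0.112). For shRNA 2 they were exp107 of 72Q control (0.0871), exp109b of 72Q control (0.0562), exp109a of shRNA 2 (0.0732) or exp109b of shRNA 2 (0.111). Ifnar2 stood at 11.6, 12.2, 10.4 and 10.6 CPM in 25Q and at 14.6, 12.6, 11.2 and 13.5 CPM in the 72Q control, groups that overlapped, and at 10.8, 12.7, 10.9 and 11.4 and 14.0, 13.4, 10.7 and 12.9 CPM with shRNA 1 and shRNA 2. Its rise of 0.21 ± 0.09 in 72Q (adjusted p = 0.0384) was lost in 10 of 19 alternatives (adjusted p 0.000982 to 0.196), among them those without exp107 of 25Q (0.0964), exp109b of 25Q (0.132), exp107 of 72Q control (0.166) or exp109b of 72Q control (0.114), and neither shRNA passed (adjusted p = 0.0916 and 0.833).

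Of the transcription factors, Stat2 fell while the other 4 that passed rose. STAT2 is the subunit that gives the interferon-activated complex its activation domain. Stat2 stood at 47.3, 38.2, 42.6 and 43.4 CPM in 25Q and at 26.6, 14.0, 27.9 and 24.3 CPM in the 72Q control. It stood at 33.1, 28.9, 38.4 and 33.1 CPM with shRNA 1 and at 42.9, 24.3, 46.5 and 40.9 CPM with shRNA 2. The 25Q and 72Q control libraries did not overlap, and the exp108 library was the lowest of every group. Stat2 fell by 0.91 ± 0.11 in 72Q, or 1.87-fold (adjusted p = 6.82e-06). It rose by 0.54 ± 0.12 with shRNA 1 (adjusted p = 0.00128) and by 0.73 ± 0.11 with shRNA 2 (adjusted p = 9.6e-05), with every shRNA library above the control of its experiment. Without the experiment block the shRNA 1 difference did not pass (adjusted p = 0.0537, within a range of 7.45e-14 to 0.0537). Stat2 with shRNA 1 was lower than 25Q by 0.36 ± 0.11 (adjusted p = 0.011), a call lost without the block (0.142), with library totals (-0.24, 0.0807), without exp107 as a whole (0.0686) and without exp109b as a whole (0.0637), within a range of 7.27e-07 to 0.142. With shRNA 2 the difference from 25Q was -0.17 ± 0.11 (95% interval -0.40 to 0.06, adjusted p = 0.18).

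Irf1 and Irf2 encode factors that bind overlapping sites, IRF1 as an activator and IRF2 mainly as its competitor. Irf1 stood at 2.84, 1.77, 2.45 and 2.22 CPM in 25Q, 5.06, 4.44, 3.67 and 5.57 CPM in the 72Q control, 5.35, 4.81, 4.69 and 4.99 CPM with shRNA 1 and 5.53, 5.47, 5.19 and 5.57 CPM with shRNA 2. Irf2 stood at 12.7, 12.4, 12.5 and 14.1 CPM in 25Q, 19.8, 22, 19.4 and 22.1 CPM in the 72Q control, 22.4, 25.01, 20.8 and 23.2 CPM with shRNA 1 and 20.7, 19.7, 20.9 and 25.7 CPM with shRNA 2. For both genes all 72Q libraries, with any shRNA, were above all 25Q libraries. Irf1 rose by 0.98 ± 0.14 (adjusted p = 1.04e-06) and Irf2 by 0.68 ± 0.08 (adjusted p = 9.97e-09) in 72Q. Neither Twist1 shRNA moved them past the test, with differences from 0.06 ± 0.07 for Irf2 to 0.21 ± 0.12 for Irf1 with shRNA 2 (adjusted p = 0.529 and 0.167).

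Irf9, which encodes the DNA-binding subunit of the STAT2 complex, stood at 7.07, 9.11, 8.22 and 7.68 CPM in 25Q and at 8.72, 13.2, 7.57 and 10.4 CPM in the 72Q control. It stood at 6.70, 11.6, 7.68 and 8.30 CPM with shRNA 1 and at 8.81, 15.9, 11.5 and 13.4 CPM with shRNA 2. The exp108 library was the highest of every group, and 25Q overlapped the 72Q control. Irf9 rose by 0.30 ± 0.10 in 72Q (adjusted p = 0.0154), a call lost in 7 of 19 alternatives (adjusted p 0.000677 to 0.211), among them those without exp108 of 25Q (0.12), exp109b of 25Q (0.0658), exp107 of 72Q control (0.0669) or exp108 of 72Q control (0.0555). It rose by 0.31 ± 0.10 with shRNA 2 (adjusted p = 0.00975), lost without exp109a of 72Q control (0.0879) and without the experiment block (0.263), within a range of 0.00174 to 0.263. Directly compared, Irf9 was lower with shRNA 1 than with shRNA 2 by 0.53 ± 0.10 (adjusted p = 4.22e-05). The 123 bases that Irf9 shares with Rnf31 are on the same strand, so some reads may belong to either.

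Irf7, the gene of a factor that amplifies interferon production, was scarce, at 0.637, 0.367, 0.552 and 0.381 CPM in 25Q and 0.793, 1.40, 0.339 and 0.568 CPM in the 72Q control. It stood at 0.411, 0.870, 0.339 and 0.561 CPM with shRNA 1 and at 0.806, 1.31, 0.667 and 2.02 CPM with shRNA 2. The groups overlapped, with exp109b of shRNA 2 the highest library. Irf7 did not pass in 72Q (0.53 ± 0.33, adjusted p = 0.183) or with either shRNA against the control (adjusted p = 0.329 and 0.101). It was lower with shRNA 1 than with shRNA 2 by 0.98 ± 0.30 (adjusted p = 0.00673), a call lost without exp109b of shRNA 2 (0.103) (range 0.000861 to 0.103). Irf3, the gene of a factor that is activated downstream of the sensors, stood at 5.62, 10.6, 9.14 and 9.02 CPM in 25Q and 9.57, 14.4, 9.10 and 11.7 CPM in the 72Q control, and at 8.82, 10.6, 11.6 and 11.2 and 9.13, 12.6, 10.4 and 12.0 CPM with shRNA 1 and shRNA 2. Irf3 rose by 0.38 ± 0.11 in 72Q with overlapping groups (adjusted p = 0.00341), lost without the experiment block (adjusted p = 0.0867) and without exp107 as a whole (0.0557), and neither shRNA moved it past the test.

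Most effectors were scarce, 7 of the 10 tested having no 25Q library over the filter level. Oasl2, an oligoadenylate synthetase-like gene, stood at 0.174, 0.183, 0.123 and 0 CPM in 25Q and at 1.16, 2.16, 0.565 and 1.70 CPM in the 72Q control. It stood at 0.647, 0.870, 0.452 and 0.811 CPM with shRNA 1 and at 0.913, 3.28, 1.62 and 3.02 CPM with shRNA 2. The lowest 72Q control library, exp109a, was above the highest 25Q library, and shRNA 1 and shRNA 2 did not overlap. Oasl2 rose by 2.66 ± 0.35 in 72Q (adjusted p = 1.49e-07), where the ratio of summed counts over library totals was 12.7 (exact 95% interval 6.18 to 30.1, 99 against 8 counts). Such intervals cover counting error only, and the fitted fold changes of genes this scarce are drawn toward 0 by the prior count. Oasl2 fell by 0.89 ± 0.27 with shRNA 1 (adjusted p = 0.00816) and rose by 0.62 ± 0.22 with shRNA 2 (adjusted p = 0.026). The fall was lost without exp108 of shRNA 1 (0.062) and without the experiment block (0.105), within a range of 0.00111 to 0.105. The rise with shRNA 2 was lost in 10 of 19 alternatives (adjusted p 0.00317 to 0.245), among them those without exp109a of 72Q control (0.119), exp109b of 72Q control (0.0782), exp108 of shRNA 2 (0.086), exp109a of shRNA 2 (0.0932) or exp109b of shRNA 2 (0.131). Between the shRNAs the difference was -1.51 ± 0.25 (adjusted p = 8.95e-06).

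Ifit1 stood at 0.0579, 0.183, 0.123 and 0 CPM in 25Q and at 0.549, 1.40, 0.170 and 1.497 CPM in the 72Q control. It stood at 0.176, 0.153, 0.226 and 0.249 CPM with shRNA 1 and at 0, 1.20, 0.667 and 1.75 CPM with shRNA 2. The exp108 and exp109b libraries carried most of the level in the 72Q control and with shRNA 2, while all shRNA 1 libraries were near the 25Q values. Ifit1 rose by 2.27 ± 0.50 in 72Q (adjusted p = 0.000499), a ratio of summed counts of 11.1 (exact 95% interval 4.82 to 31.3, 65 against 6 counts). It fell by 1.67 ± 0.45 with shRNA 1 (adjusted p = 0.00441), which left it 0.60 ± 0.55 from 25Q (adjusted p = 0.364). The fall did not pass with DESeq2 (adjusted p = 0.0751), without the experiment block (0.0529) or without exp108 as a whole (0.0803), within a range of 3.13e-06 to 0.0803. With shRNA 2 Ifit1 was at 0.905 ± 0.748 CPM against 0.904 ± 0.649 CPM in the control (adjusted p = 0.999), and it was lower with shRNA 1 than with shRNA 2 by 1.67 ± 0.45 (adjusted p = 0.00345), a call lost with DESeq2 (0.0976; range 2.17e-06 to 0.0976).

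Rsad2 stood at 0.232, 0.0611, 0.368 and 0.191 CPM in 25Q, 0.793, 1.40, 1.07 and 2.27 CPM in the 72Q control, 0.940, 1.07, 0.791 and 1.37 CPM with shRNA 1 and 1.34, 2.35, 1.43 and 2.23 CPM with shRNA 2. Every 72Q library, with any shRNA, was above every 25Q library. Rsad2 rose by 2.18 ± 0.31 (adjusted p = 4.37e-07), did not pass with either shRNA against the control (adjusted p = 0.209 and 0.158) and was lower with shRNA 1 than with shRNA 2 by 0.75 ± 0.22 (adjusted p = 0.00581). That call was lost without the experiment block (0.0517) and without exp108 of shRNA 2 (0.0509), within a range of 0.00162 to 0.0517. Usp18, which encodes a protease that removes ISG15 and damps the receptor, stood at 0.174, 0, 0 and 0 CPM in 25Q and at 0.854, 0.700, 0 and 0.671 CPM in the 72Q control. It stood at 0.0588, 0.0512, 0.282 and 0.187 CPM with shRNA 1 and at 0.161, 1.09, 0.524 and 1.17 CPM with shRNA 2. Only exp107 of 25Q had any Usp18 count, and exp109a of the 72Q control had none. Usp18 rose by 2.05 ± 0.65 in 72Q (adjusted p = 0.013), with a ratio of summed counts of 13.3 (exact 95% interval 4.23 to 67.2, 39 against 3 counts). That call was lost in several alternatives, among them those without exp108 of 25Q (0.0521) or exp109b of 25Q (0.0515). The adjusted p ranged from 2.35e-06 to 0.0807. The estimate was 2.64 without exp107 of 25Q. With shRNA 1 the Usp18 difference was -1.36 ± 0.60 (adjusted p = 0.0752), and between shRNA 1 and shRNA 2 it was -1.72 ± 0.57 (adjusted p = 0.0191). The latter call was lost in 8 of 18 alternatives (adjusted p 1.84e-05 to 0.131), among them DESeq2 (0.12) and those without exp107 of shRNA 1 (0.059), exp108 of shRNA 1 (0.0936), exp109b of shRNA 1 (0.063), exp108 of shRNA 2 (0.0692) or exp109b of shRNA 2 (0.0696).

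Parp14, an ADP-ribosyltransferase gene, stood at 0.174, 0.183, 0 and 0.0635 CPM in 25Q, 0.488, 1.17, 0.452 and 0.568 CPM in the 72Q control, 0.705, 0.205, 0.791 and 0.499 CPM with shRNA 1 and 0.645, 1.64, 0.810 and 1.06 CPM with shRNA 2. The 25Q libraries lay below all 72Q libraries. Parp14 rose by 1.82 ± 0.43 (adjusted p = 0.000614), with summed counts at a ratio of 6.86 (exact 95% interval 3.08 to 18.0, 47 against 7 counts), and did not pass with either shRNA (adjusted p = 0.606 and 0.159). Trim25, the ubiquitin ligase gene that activates RIG-I, stood at 0.927, 0.672, 1.17 and 1.14 CPM in 25Q and at 2.13, 3.09, 1.70 and 3.82 CPM in the 72Q control. It stood at 3.29, 5.27, 2.71 and 3.93 CPM with shRNA 1 and at 2.53, 3.50, 3.00 and 5.46 CPM with shRNA 2, so that exp108 was the highest library of shRNA 1 and exp109b that of shRNA 2. Trim25 rose by 1.34 ± 0.23 in 72Q (adjusted p = 8.22e-06) and by 0.50 ± 0.18 more with shRNA 1 (adjusted p = 0.0197), the latter lost in 6 of 19 alternatives (adjusted p 0.00282 to 0.203), among them those without exp109a of 72Q control (0.074), exp107 of shRNA 1 (0.0567) or exp108 of shRNA 1 (0.203). With shRNA 2 it was 0.42 ± 0.17 (adjusted p = 0.0552), with adjusted p from 0.0211 to 0.291 over the alternatives.

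Of the other effectors, Mx2 and Bst2 passed the filter through 72Q libraries alone. Their summed counts were 15 and 14 in 25Q and 47 and 43 in the 72Q control. Mx2 rose by 1.16 ± 0.32 in 72Q (adjusted p = 0.00233) and Ifit2 by 0.32 ± 0.09 (adjusted p = 0.00181). Ifit2, at 14.9 ± 1.31 CPM in the 72Q control, fell with shRNA 1 by 0.44 ± 0.09 (adjusted p = 8.85e-05) and with shRNA 2 by 0.34 ± 0.08 (adjusted p = 0.00129), and neither shRNA group overlapped the control or differed from 25Q past the test (adjusted p = 0.271 and 0.849). Bst2, the gene of the virus-tethering protein tetherin, rose by 1.10 ± 0.44 in 72Q (adjusted p = 0.0351), lost in 9 of 18 alternatives (adjusted p 0.000251 to 0.286), among them those without exp107 of 25Q (0.0876), exp108 of 25Q (0.11), exp109b of 25Q (0.199), exp108 of 72Q control (0.11) or exp109b of 72Q control (0.136), and estimated at 1.88 without exp109a of 25Q and 0.70 without exp109b of 25Q. Ifi35 did not pass in any of the 3 main comparisons (adjusted p = 0.349, 0.541 and 0.751). The other 7 effectors, which include the textbook markers Isg15 and Mx1, did not pass the filter. Isg15 averaged 0.0924 ± 0.0789 CPM in 25Q, 0.178 ± 0.122 CPM in the 72Q control, 0.202 ± 0.0859 CPM with shRNA 1 and 0.571 ± 0.180 CPM with shRNA 2. The chemokine gene Cxcl10 had a ratio of summed counts of 3.37 (exact 95% interval 1.62 to 7.67, 33 against 10 counts) in 72Q against 25Q and of 0.0908 (exact 95% interval 0.0178 to 0.289, 3 against 33 counts) with shRNA 1 against the control. Mx1 had 8.18 (exact 95% interval 1.10 to 363, 8 against 1 counts) in 72Q. Of the 10 Cxcl10 counts in 25Q, 8 were in exp107. Cxcl10 overlaps Art3 by 2252 bases on the opposite strand, with 58 and 48 summed counts. The strand setting was not stated, so some reads may belong to either. Ifit3 averaged 0.254 ± 0.187 and 0.359 ± 0.189 CPM in 25Q and the 72Q control, Ifitm3 0.273 ± 0.0751 and 0.530 ± 0.449 CPM and Gbp2 0.0588 ± 0.0819 and 0.159 ± 0.0650 CPM. Oas1a had 0 counts in all 16 libraries.

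In the class I pathway 5 of the 6 genes that supply peptides rose in 72Q, all but Psmb10, while none of H2-K1, H2-D1 and B2m did. Of the 5, Psmb8 passed the filter through 72Q libraries alone. Among all genes tested 29.3% were called as higher. Tap1 and Tap2 encode the subunits of the peptide transporter of the endoplasmic reticulum. Tap1 stood at 8.28, 6.30, 11.8 and 11.8 CPM in 25Q and at 25.7, 36.4, 32.2 and 49.0 CPM in the 72Q control. It stood at 15.4, 17.2, 17.6 and 25.8 CPM with shRNA 1 and at 22.03, 28.4, 31.5 and 44.7 CPM with shRNA 2. All 72Q libraries were above all 25Q libraries, and the shRNA 1 library was below the control and below shRNA 2 in every experiment. Tap1 rose 3.69-fold in 72Q (1.88 ± 0.11, adjusted p = 7.96e-12) and fell by 0.91 ± 0.10 with shRNA 1 (adjusted p = 1.74e-07), where it was still 0.98 ± 0.12 above 25Q (adjusted p = 4.3e-07). With shRNA 2 the difference from the control was -0.18 ± 0.09 (adjusted p = 0.12, range 0.0231 to 0.645 over the alternatives; -0.25 and 0.0487 without exp109a of the 72Q control). It was lower with shRNA 1 than with shRNA 2 by 0.72 ± 0.10 (adjusted p = 3.25e-06).

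Tap2 stood at 3.13, 2.69, 1.90 and 2.60 CPM in 25Q and at 6.40, 6.71, 4.97 and 6.97 CPM in the 72Q control. It stood at 4.76, 4.50, 4.75 and 5.99 CPM with shRNA 1 and at 6.72, 6.62, 6.67 and 7.90 CPM with shRNA 2. No 72Q library overlapped 25Q. Tap2 rose 2.36-fold in 72Q (1.24 ± 0.13, adjusted p = 4.07e-09). Its fall of 0.32 ± 0.12 with shRNA 1 (adjusted p = 0.0264) was lost in 10 of 19 alternatives (adjusted p 0.0181 to 0.172), among them those without exp107 of 72Q control (0.0596), exp108 of 72Q control (0.113), exp109b of 72Q control (0.0517), exp107 of shRNA 1 (0.0881) or exp108 of shRNA 1 (0.107), while shRNA 1 and shRNA 2 did not overlap (-0.48 ± 0.11, adjusted p = 0.000809). Tapbp encodes tapasin, which bridges the transporter to the class I molecule. It averaged 29.3 ± 2.35 CPM in 25Q, 58.9 ± 6.07 CPM in the 72Q control, 46.2 ± 2.00 CPM with shRNA 1 and 43.2 ± 2.96 CPM with shRNA 2, and neither shRNA group overlapped the control. Tapbp rose by 1.00 ± 0.06 in 72Q (adjusted p = 6.23e-14) and fell with both shRNAs, by 0.34 ± 0.06 with the first (adjusted p = 2.14e-05) and by 0.44 ± 0.06 with shRNA 2 (adjusted p = 5.55e-07). Tapbp overlaps Zbtb22 by 3421 bases on the same strand, and with 12642 and 13223 summed counts the genes are similar in abundance, so the division of their reads is uncertain.

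**Figure D4:**
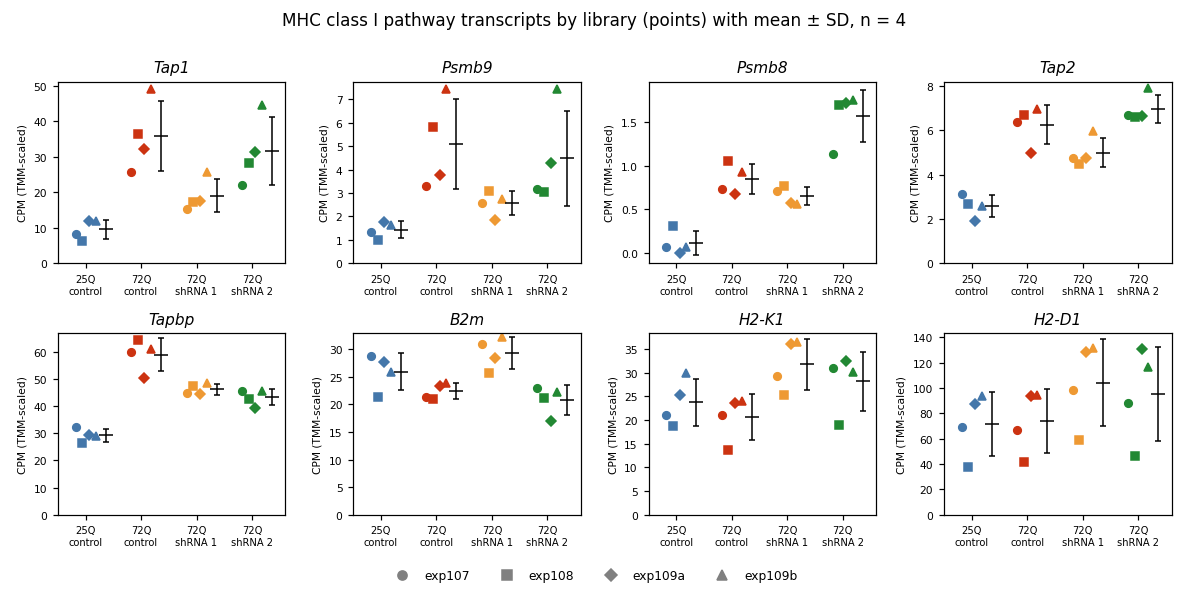
TMM-scaled CPM (y axis) of MHC class I pathway genes in each of the 16 libraries (points, shaped by experiment) with the mean ± SD of each group (n = 4). Tap1, Tap2, Tapbp, Psmb8 and Psmb9 have no 72Q control library within the 25Q range, while B2m, H2-K1 and H2-D1 overlap between these groups, and H2-K1 and H2-D1 are lowest in exp108 of every group.

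Psmb9, Psmb8 and Psmb10 encode the catalytic subunits that replace Psmb6, Psmb5 and Psmb7 in the immunoproteasome. Psmb9 stood at 1.33, 0.978, 1.78 and 1.65 CPM in 25Q and at 3.29, 5.84, 3.79 and 7.43 CPM in the 72Q control. It stood at 2.59, 3.07, 1.86 and 2.74 CPM with shRNA 1 and at 3.17, 3.06, 4.29 and 7.43 CPM with shRNA 2. The shRNA 1 libraries lay between the 25Q and 72Q control libraries without overlapping either. Psmb9 rose 3.31-fold in 72Q (1.73 ± 0.22, adjusted p = 5e-07), fell by 0.93 ± 0.20 with shRNA 1 (adjusted p = 0.000465) and did not pass with shRNA 2 (-0.18 ± 0.18, adjusted p = 0.453). Psmb9 lies head to head with Tap1, overlapping it by 212 bases on the opposite strand.

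Psmb8 stood at 0.0579, 0.306, 0 and 0.0635 CPM in 25Q and at 0.732, 1.05, 0.678 and 0.929 CPM in the 72Q control. It stood at 0.705, 0.767, 0.565 and 0.561 CPM with shRNA 1 and at 1.13, 1.70, 1.71 and 1.75 CPM with shRNA 2. The groups of 25Q, 72Q control and shRNA 2 formed a rising series without overlap. Psmb8 rose by 2.13 ± 0.35 in 72Q (adjusted p = 5.21e-06; ratio of summed counts 8.76 (exact 95% interval 4.00 to 22.7, 60 against 7 counts)) and by 0.82 ± 0.24 more with shRNA 2 (adjusted p = 0.00574), and did not pass with shRNA 1 (-0.33 ± 0.27, adjusted p = 0.343). Psmb10 averaged 22.4 ± 0.783 CPM in 25Q and 24.3 ± 2.21 CPM in the 72Q control and did not pass (0.12 ± 0.07, adjusted p = 0.152), except with upper-quartile factors (0.18, adjusted p = 0.0275) or library totals (0.25, adjusted p = 0.00286), within a range of 0.00286 to 0.432. Per kilobase, Psmb9 amounted to 0.691 ± 0.233% of Psmb6 in 25Q, 2.07 ± 0.758% in the 72Q control, 1.14 ± 0.138% with shRNA 1 and 1.95 ± 1.01% with shRNA 2. Psmb8 amounted to 0.278 ± 0.315% of Psmb5 in 25Q, 1.85 ± 0.357% in the 72Q control, 1.67 ± 0.118% with shRNA 1 and 3.76 ± 0.721% with shRNA 2. Psmb10 amounted to 21.1 ± 1.41% of Psmb7 in 25Q and 19.8 ± 1.22% in the 72Q control. These shares compare transcript levels, and the constitutive Psmb5, Psmb6 and Psmb7 themselves rose in 72Q by 0.39 ± 0.08, 0.20 ± 0.05 and 0.21 ± 0.05 (adjusted p = 0.000172, 0.000599 and 0.0005).

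H2-K1 and H2-D1 encode classical class I heavy chains, and B2m the light chain beta-2 microglobulin that they need at the surface. Per kilobase, B2m at 26.0 ± 1.70 and H2-D1 at 28.7 ± 9.82 CPM per kilobase were above Tap1 at 6.54 ± 1.80 in the 72Q control, and in 25Q the levels were 30.1 ± 3.88, 27.9 ± 9.76 and 1.75 ± 0.501. H2-K1 stood at 21.1, 18.7, 25.2 and 29.98 CPM in 25Q and at 21.0, 13.6, 23.7 and 24.1 CPM in the 72Q control. It stood at 29.2, 25.3, 35.99 and 36.5 CPM with shRNA 1 and at 31.0, 19.0, 32.4 and 30.2 CPM with shRNA 2. H2-D1 stood at 68.9, 37.5, 87.2 and 93.7 CPM in 25Q and at 66.6, 41.4, 93.7 and 94.6 CPM in the 72Q control. For both heavy chains the exp108 library was the lowest of every group, and 25Q overlapped the 72Q control. With shRNA 1 H2-D1 stood at 98.2, 58.7, 128 and 132 CPM and with shRNA 2 at 88.5, 46.5, 131 and 116 CPM. The shRNA library was above the control of its experiment in all 4 experiments for both heavy chains and both shRNAs.

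In 72Q against 25Q H2-D1 did not pass (0.05 ± 0.05, adjusted p = 0.453), though it did with library totals (0.18, adjusted p = 0.00428, range 0.00428 to 0.934). H2-K1 fell by 0.21 ± 0.08 (adjusted p = 0.0259) and B2m by 0.21 ± 0.08 (adjusted p = 0.0302). These small falls were lost in 8 of 19 and 10 of 19 alternatives (adjusted p 0.00671 to 0.438 and 0.00799 to 0.436), both with upper-quartile factors (0.108 and 0.118), with library totals (0.422 and 0.436) and without the experiment block (0.438 and 0.121). The H2-K1 call was also lost without exp108 of 25Q (0.0854), exp109b of 25Q (0.153) or exp108 of 72Q control (0.108), and the B2m call without exp107 of 25Q (0.0936), exp109a of 25Q (0.154), exp107 of 72Q control (0.155) or exp109b of 72Q control (0.0544). With shRNA 1 H2-K1 rose by 0.63 ± 0.08 (adjusted p = 6.35e-08), H2-D1 by 0.50 ± 0.05 (adjusted p = 3.63e-09) and B2m, from 22.4 ± 1.46 to 29.3 ± 2.87 CPM without overlap, by 0.38 ± 0.08 (adjusted p = 0.000221). With shRNA 2 H2-K1 rose by 0.45 ± 0.08 (adjusted p = 1.95e-05) and H2-D1 by 0.35 ± 0.05 (adjusted p = 2.89e-06), while B2m did not pass (-0.11 ± 0.08, adjusted p = 0.288). The heavy-chain calls rest on the pairing by experiment, since without the block the adjusted p was 0.37 for H2-D1 with shRNA 1, 0.541 for H2-D1 with shRNA 2 and 0.109 for H2-K1 with shRNA 2 (ranges 3.45e-18 to 0.37, 4.77e-09 to 0.541 and 7.16e-09 to 0.109), and it was 0.0236 for H2-K1 with shRNA 1. B2m was higher with shRNA 1 than with shRNA 2 by 0.49 ± 0.08 (adjusted p = 5.91e-06). Nlrc5, the gene of the class I transactivator, averaged 0.671 ± 0.127 CPM in 25Q and 0.467 ± 0.213 CPM in the 72Q control and did not pass in any of the 3 main comparisons. H2-K1 and H2-D1 have close paralogs within the MHC, and how reads shared with them were counted was not stated in the notes used here. Of the 10 class I genes, 7 lie within the MHC of chromosome 17, so neighbourhood is shared among them.

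Interferon ligand genes were at or close to 0. Of 10 interferon ligand genes, among them Ifnb1, Ifng and several Ifna genes, 8 had 0 counts in all 16 libraries, and all 10 together had 3 counts, of which 2 were in 25Q and 0 in the 72Q control. A wider list of 113 interferon and antigen presentation genes outside the 41 was matched for 111, Gbp5 and Gbp6 not being analysed here, and 71 passed the filter. In 72Q 43 of the 71 rose, 4 fell and 24 did not pass, with a median of 0.43, so that 66.2% were called against 57.1% of all genes. Of the 71, 8 had no 25Q library over the filter level and passed it through 72Q libraries, and the other 63 included 36 that rose and 4 that fell, with a median of 0.33. With shRNA 1 11 of the 71 rose and 15 fell (36.6% called, against 46.3% of all genes), and with shRNA 2 10 rose and 11 fell (29.6%, against 41.8%). Of 22 other induced genes tested, 16 rose in 72Q and none fell (72.7% called), or 11 of 17 (64.7%) without those that passed through 72Q libraries. By size of change they were led by Dtx3l (1.86 ± 0.14, adjusted p = 1.69e-12), the partner gene of a PARP-family enzyme, Gbp3 (1.40 ± 0.32, adjusted p = 0.000444), a guanylate-binding protein gene that passed the filter through 72Q libraries, and Zc3hav1 (1.38 ± 0.18, adjusted p = 1.75e-07), which encodes the antiviral protein ZAP. Of 7 other receptor, kinase and STAT genes 4 rose and 2 fell (85.7% called). The rises by size were led by the interferon lambda receptor gene Ifnlr1 (1.85 ± 0.36, adjusted p = 6.51e-05), which passed the filter through 72Q libraries, and the interferon gamma receptor gene Ifngr1 (0.98 ± 0.07, adjusted p = 9.15e-13). Of 11 nucleic acid sensing genes 6 rose and 1 fell (63.6% called, near the 57.1% of all genes). The adaptor genes Myd88 and Ticam1 rose by 0.85 ± 0.17 and 0.47 ± 0.11 (adjusted p = 0.000101 and 0.000456), and Myd88 fell by 1.49 ± 0.18 with shRNA 1 (adjusted p = 7.42e-08) but did not pass with shRNA 2 (adjusted p = 0.336). Of 8 negative regulators 4 rose and 1 fell (62.5% called, near the 57.1% of all genes), and named by size of change they were Nlrx1 (0.54 ± 0.11, adjusted p = 0.000123), Samhd1 (0.43 ± 0.09, adjusted p = 9.12e-05) and Ptpn2 (-0.26 ± 0.09, adjusted p = 0.0113). Of 12 other class I and loading genes 4 rose and none fell, so that 33.3% were called, fewer than the 57.1% of all genes. Those that rose were led by the peptide-trimming aminopeptidase gene Erap1 (0.79 ± 0.09, adjusted p = 3.38e-08), the class I gene H2-T22 (0.78 ± 0.20, adjusted p = 0.00159) and the loading-complex gene Pdia3 (0.45 ± 0.06, adjusted p = 1.62e-07).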

How the data were processed

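RNA depleted of ribosomal RNA with Ribo-Zero, per the labels' protocols, was sequenced in 16 libraries, 4 in each of 4 groups. Reads were aligned to GRCm38 with STAR 2.0.4b and counted per Ensembl gene with featureCounts 1.45 of the Subread package, per the submitters' processing notes. The sources used here do not state the strand setting, the annotation release or the treatment of reads that map to several places. The deposited counts were the input of all tests. The deposited CPM and RPKM values were recomputed from the deposited counts within 2.5e-11 and 4.7e-11, so they are plain scalings of the counts by library total and gene length, and they were not used in tests.

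The 41 members and all gene lists were chosen with earlier results of these data known. Symbols were found for 40254 of 41388 Ensembl identifiers (97.26%). Genes reaching 0.565 CPM (10 counts) in 4 libraries were kept by filterByExpr, which left 15103. TMM factors ranged from 0.898 to 1.08. The edgeR 4.0.16 quasi-likelihood test in R 4.3.3 was fitted once to all groups with group and experiment as terms, a prior count of 2 and a threshold of 0.05 on Benjamini-Hochberg adjusted p-values over all genes tested. The coefficient of biological variation was 5.24%. The fit was tested on simulated counts with known changes.

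The pairing comes from the description labels, which put 1 library of each group in each experiment. The replicate numbers in the titles do not follow these experiments for the 25Q group, and the experiment label was used. The labels exp109a and exp109b share a number and were treated as separate experiments. Deviations from the group means correlated at 0.223 to 0.612 in the 24 pairs of libraries from the same experiment and at -0.333 to 0.278 in the 72 pairs from other experiments, across genes. No libraries were identical: replicate pairs differed by a chi-square of 2.71 to 20.8 per degree of freedom. Beyond the experiment labels, nothing says that libraries came from separate cultures, and the spread behind every p-value is that between these libraries.

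Among members that passed the filter, values in every library are given per role for the 4 with the largest absolute log2 fold change in 72Q against 25Q and the 2 further with the largest change with either shRNA, and up to 3 called genes per subgroup of the wider pathway list. Some genes that this rule selects are not reported here. Intervals on ratios of summed counts are exact at 95%, conditional on the sum. Promoter windows of 300 bases are from RefSeq on GRCm38.p6. Alternatives were DESeq2 1.42.0 size factors, upper-quartile factors, library totals, no filter on low counts, the DESeq2 Wald test, no replicate block, only the 2 groups compared, each library left out, each experiment left out (added after the values were seen) and a promoter window of 150 bases.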

Additional observations from a re-analysis of the deposited data

Results flagged for a closer look

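Of 132 member and group combinations of 4 libraries, 7 held 1 library far from the other 3, its gap to the nearest taking up most of the range of the group (above Dixon's 95% critical value). Chance gives about 1 in 20 such cases. In the 72Q control, Parp14 stood at 1.17 CPM in exp108 against 0.452 to 0.568 CPM. In 25Q, Usp18 stood at 0.174 CPM in exp107 against 0 in the others. With shRNA 1, Ifnar1 stood at 116 CPM in exp109b against 107 to 109 CPM, and Jak1 at 274 CPM in exp108 against 261 to 263 CPM. With shRNA 2, Tap2 stood at 7.90 CPM in exp109b against 6.62 to 6.72 CPM, Psmb8 at 1.13 CPM in exp107 against 1.70 to 1.75 CPM and H2-K1 at 19.0 CPM in exp108 against 30.2 to 32.4 CPM.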

How the results depend on the processing

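The counts with the shRNAs depended on the experiment as a block: with no replicate block the called members numbered 8 rather than 16 with shRNA 1, 6 rather than 13 with shRNA 2, and 13 rather than 20 between the shRNAs. Leaving out 1 library gave 13 to 19 for shRNA 1 against shRNA 2, the lowest without exp109b of shRNA 2, and leaving out experiment exp109b gave 12. For the other counts the range on leaving out 1 library was 22 to 27 in 72Q against 25Q, 12 to 15 with shRNA 1 and 10 to 14 with shRNA 2. With library totals as the scaling, the median of all genes moved from 0.03 to 0.16 in 72Q against 25Q, where 26 members were then higher and 2 lower, and the shRNA 1 against shRNA 2 split became 2 higher and 16 lower. Among the members' fold changes under these alternatives, 1 came out past the threshold in the opposite direction: Ifnar1 in 72Q with shRNA 2 against 25Q, at -0.03 and not called by TMM and 0.18 and called with library totals. The DESeq2 Wald test called 26 in 72Q against 25Q, 13 with shRNA 1, 11 with shRNA 2 and 14 between the shRNAs. In every alternative that gave a value, 18 of 23 higher and 2 of 4 lower calls were kept in 72Q against 25Q, 8 of 16 calls with shRNA 1 and 5 of 13 with shRNA 2. In a promoter window of 150 bases the ISRE letters were in 23.5% of the members and 1.69% of all genes. Depth limits the 8 members under the filter, for which no fitted change is given, and those averaging under 1 CPM, whose intervals are wide.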

Other observations

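MHC class II chain and loading genes serve to present extracellular peptides and are best known from microglia and other professional presenting cells. They were examined beside the class I pathway, together with the transcriptional regulator genes Ciita, Rfx5, Rfxap and Rfxank. Of 10 listed, 8 passed the filter, and in 72Q against 25Q 6 rose and none fell by the edgeR quasi-likelihood test, against 29.3% of all genes tested called as higher and 27.8% as lower. H2-Aa had no 25Q library over the filter level and passed through 72Q libraries, and without it 5 of 7 rose. Those that rose included the regulator genes Rfxap (40.0 CPM in 25Q and 44.6 CPM in the 72Q control) and Rfxank (9.85 and 12.5 CPM). The invariant chain gene Cd74, at 3.34 CPM in 25Q and 2.61 CPM in the 72Q control, was not called. Ciita, at 0.442 and 0.453 CPM, did not pass the filter. The chain genes H2-Aa (1.76 ± 0.36, adjusted p = 0.000109), H2-Ab1 (1.70 ± 0.41, adjusted p = 0.00103) and H2-Eb1 (0.80 ± 0.25, adjusted p = 0.00872) had the largest changes, at means of 0.564, 1.00 and 1.33 CPM in the 72Q control and 0.0885, 0.242 and 0.721 CPM in 25Q. None of these 3 passed with either Twist1 shRNA, the adjusted p being 0.0729 to 0.729. Beside them, 14 of 18 microglial and macrophage markers averaged under 1 CPM in each group, and the share of class II signal from such cells was not tested.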
